A study of Homo sapiens with 12 samples.

Results

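Cyclins and cyclin-dependent kinases (CDKs) drive the cell division cycle, and 10 of their genes are described here: the D-type cyclins CCND1, CCND2 and CCND3 with their kinases CDK4 and CDK6, the E-type cyclins CCNE1 and CCNE2, and the S-phase and mitotic cyclins CCNA2 and CCNB1 with the kinase CDK1. They were taken by gene symbol from a table of 60591 genes, and 9 of the 10 were among the 19108 genes with enough reads to be tested. RNA-seq had been performed on polyA RNA of PC9 and H1650, established human non-small cell lung cancer lines that carry the same activating deletion in the epidermal growth factor receptor EGFR and respond differently to EGFR inhibitors. Cells of each line were collected at the start of drugging (T0, 0 h, 0.1% DMSO) or 36 h after exposure to erlotinib at 10 µM or osimertinib at 0.1 µM, with 2 replicates in each of the 6 groups (12 libraries). Erlotinib binds EGFR reversibly and osimertinib binds it covalently. The labels give the genotype of all cells as wild-type, although both lines carry the EGFR deletion, and each line stands for 1 tumor.

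An external growth signal such as EGFR activity raises D-type cyclins, which bind CDK4 or CDK6 and begin the phosphorylation of the retinoblastoma protein RB. Phosphorylated RB releases the E2F transcription factors, whose targets include the E-type cyclins and, later, cyclin A and CDK1. Cyclin B with CDK1 starts mitosis, and the late genes are controlled by MuvB complexes, which bind a promoter element called the cell cycle genes homology region (CHR), and by NF-Y, which binds CCAAT boxes near it.

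Positions are those of GENCODE 29 on GRCh38, the build that the submitters' processing notes name. The D-type cyclins are CCND1 (chr11:69641087-69654474, plus strand), CCND2 (chr12:4273772-4305350, plus strand) and CCND3 (chr6:41934933-42050357, minus strand). Their kinases are CDK4 (chr12:57747727-57756013, minus strand) and CDK6 (chr7:92604921-92836594, minus strand). The E-type cyclins are CCNE1 (chr19:29811898-29824308, plus strand) and CCNE2 (chr8:94879770-94896678, minus strand). CCNA2 (chr4:121816444-121823933, minus strand), CCNB1 (chr5:69167010-69178245, plus strand) and CDK1 (chr10:60778331-60794852, plus strand) complete the group. Reads were assigned to whole genes over their exons, untranslated regions included. Exons of CDK4 share 43.2% of their bases with TSPAN31 on the opposite strand, those of CCNE2 37.1% with INTS8 and AC087752.4, those of CCND1 10.3% with LTO1 and those of CCNA2 9.08% with EXOSC9, and reads there cannot be assigned to 1 gene unless the counting used strand, a setting not given in the sources used here.

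Between 17961765 and 26346187 reads per library were assigned to genes, and mitochondrial genes took 4.36 to 5.36% of them in the 4 T0 libraries and 5.77 to 7.20% in the 8 treated ones, a shift whose part in the drug changes was not tested. Levels are given for each library, replicate 1 first, as normalized CPM (CPM relates a gene's count to its library total, here scaled by edgeR's TMM factor), and a gene with no read could still lie at up to 3 reads, or 0.116 to 0.168 normalized CPM (counting error only). Changes are log2 fold changes with their SE from edgeR's quasi-likelihood test, adjusted by Benjamini-Hochberg over all 19108 genes, and a gene was called at an adjusted p under 0.05. T0 cells were collected 36 h before the treated ones, and a 36-h vehicle library was not analysed here, so drug and time in culture cannot be told apart. The labels do not say whether replicates came from separate cultures, so p-values measure the spread between these libraries only. In bulk RNA, fewer cells in a phase of the cycle and less mRNA per cell cannot be told apart either. All 7 epithelial markers on a fixed list were tested, with summed levels of 6327 to 13429 normalized CPM, while the 5 leukocyte markers summed to at most 0.839.

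The windows of 250 bases before the start sites of CCNA2, CCNB1, CDK1 and CDK4 are shown because the first 3 of these genes moved together and the fourth moved less, so that the letters can be read beside the changes. They were thus picked by the changes. CCNE1, not printed, fell in PC9 about as much as CCNB1 (log2 fold changes of -2.81 and -2.67 against -2.83 and -2.74, erlotinib first). CDK6, also not printed, moved least there, and the matches of both are given below. The printed windows are from RefSeq (GRCh38.p14) and run 5′ to 3′ on the gene's strand, with motif matches in capitals. The motifs searched on both strands, chosen from general knowledge after the windows had been seen, were the CCAAT box bound by NF-Y (CCAAT), the CHR (TTTGAA or CTTGAA or TTCGAA or TTTAAA), an E2F site (TTTCCCGC or TTTGGCGC or TTTCGCGC or TTTGCCGC), an AP-1 site (TGAGTCA or TGACTCA) and the E box bound by MYC (CACGTG). The windows lie at chr4:121823884-121824133 (minus strand) for CCNA2, chr5:69166900-69167149 (plus strand) for CCNB1, chr10:60778228-60778477 (plus strand) for CDK1 and chr12:57752311-57752560 (minus strand) for CDK4. The RefSeq start sites lie inside the GENCODE bounds of these genes, so parts of longer GENCODE transcripts fall within the windows.
CCNA2: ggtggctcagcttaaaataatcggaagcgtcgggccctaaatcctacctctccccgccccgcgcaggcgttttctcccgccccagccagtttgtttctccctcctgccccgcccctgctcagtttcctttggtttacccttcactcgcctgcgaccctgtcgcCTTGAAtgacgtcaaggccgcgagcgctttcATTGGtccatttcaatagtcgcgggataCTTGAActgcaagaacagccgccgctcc
CCNB1: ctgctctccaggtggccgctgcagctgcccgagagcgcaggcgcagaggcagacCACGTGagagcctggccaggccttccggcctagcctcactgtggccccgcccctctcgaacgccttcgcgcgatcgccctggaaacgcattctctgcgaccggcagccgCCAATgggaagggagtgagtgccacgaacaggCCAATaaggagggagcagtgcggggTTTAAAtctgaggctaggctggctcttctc
CDK1: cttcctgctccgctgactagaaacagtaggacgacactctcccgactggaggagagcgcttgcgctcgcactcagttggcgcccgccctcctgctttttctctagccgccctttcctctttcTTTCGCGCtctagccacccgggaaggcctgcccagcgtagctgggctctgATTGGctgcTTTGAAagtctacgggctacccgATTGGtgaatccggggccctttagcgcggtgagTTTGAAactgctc
CDK4: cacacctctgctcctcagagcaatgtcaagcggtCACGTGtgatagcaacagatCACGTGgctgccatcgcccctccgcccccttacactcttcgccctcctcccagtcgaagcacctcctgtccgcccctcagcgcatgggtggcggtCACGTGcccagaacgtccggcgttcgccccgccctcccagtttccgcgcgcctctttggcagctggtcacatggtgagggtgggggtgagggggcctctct

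The CCNA2, CCNB1 and CDK1 windows each held a CHR match close to the start, at 28, 30 and 13 bases before it, with 1 CCAAT box upstream of it in CCNA2 (56 bases before the start) and 2 in CCNB1 (87 and 55) and in CDK1 (78 and 46). A CCAAT box and a CHR occurred together in 10.2% of the 35116 windows listed for all genes, and 2 or more CCAAT boxes with a CHR in 2.84%. CCNA2 held a further CHR match at 87 bases and CDK1 at 69, and CCNB1 held an E box at 196. CDK1 also held an E2F site 128 bases before its start, a motif found in 2.79% of windows. The CDK4 window held neither CCAAT box nor CHR, but 3 E boxes at 216, 196 and 101 bases, and an E box was found in 6.34% of windows. Of the other members with a listed window, CCND3 held a CCAAT box (32% of windows), CCNE1 held a CHR match of the TTTAAA form 28 bases before its start (29.1% of windows), and CDK6 held none of the motifs. None of the 7 members with a listed window held the AP-1 letters searched (4.2% of windows). These matches are letters in a window and not evidence of binding. No window of CCND1, CCND2 or CCNE2 was searched.

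**Figure D1:**
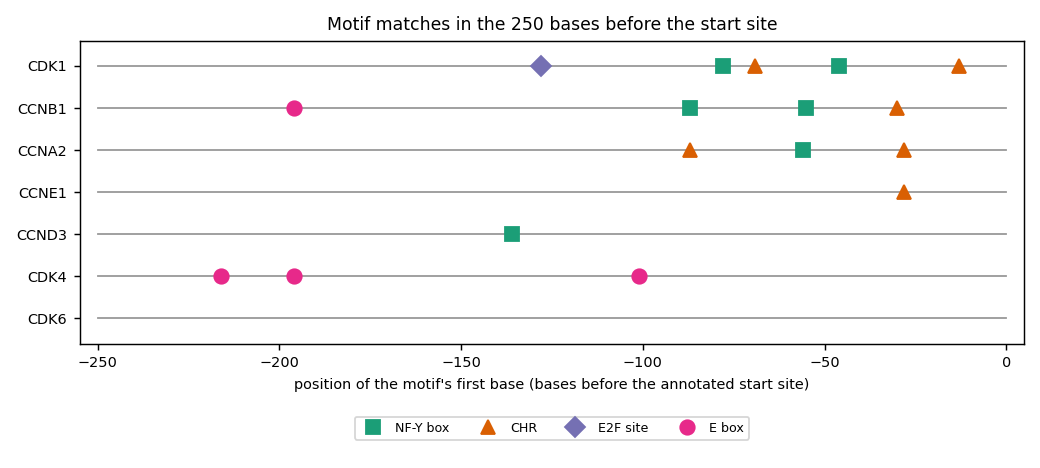
Positions of the motif matches, in bases before the annotated start site, in the 250-base windows of 7 members. Squares mark the NF-Y box (the CCAAT box), triangles the CHR, the diamond an E2F site and circles the E box. CCNA2, CCNB1 and CDK1 have an NF-Y box followed by a CHR close to the start, and CDK4 has 3 E boxes.

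In PC9 cells the cyclin and CDK mRNAs fell by very different amounts after EGFR inhibition. CDK1, CCNA2 and CCNE2 fell the most, to 7.72%, 9.11% and 8.83% of the T0 mean with erlotinib, and CDK4 and CDK6 the least. All 9 tested members were lower and 0 higher with erlotinib, where 29.1% of all tested genes were called lower and 32.7% higher. With osimertinib 8 of 9 were lower and 0 higher, where 28.7% of all tested genes were lower and 32.7% higher, the exception being CDK6. The median log2 fold change of the 9 was -2.81 with erlotinib and -2.67 with osimertinib, against 0.074 and 0.064 over all tested genes. Both drugs are compared with the same T0 libraries.

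In H1650 cells the changes were smaller except for CDK6, and the order of the genes differed. With erlotinib 5 of 9 members were lower (18.5% of all tested genes) and 0 higher (18.0%). The lower ones were CCNA2, CDK1, CCNB1, CDK6 and CDK4. The D-type and E-type cyclins were not called. With osimertinib all 9 were lower (17.9% of all tested genes) and 0 higher (17.8%). The median log2 fold change of the 9 was -0.40 with erlotinib and -0.52 with osimertinib, against 0.0051 and 0 over all tested genes.

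**Figure D2:**
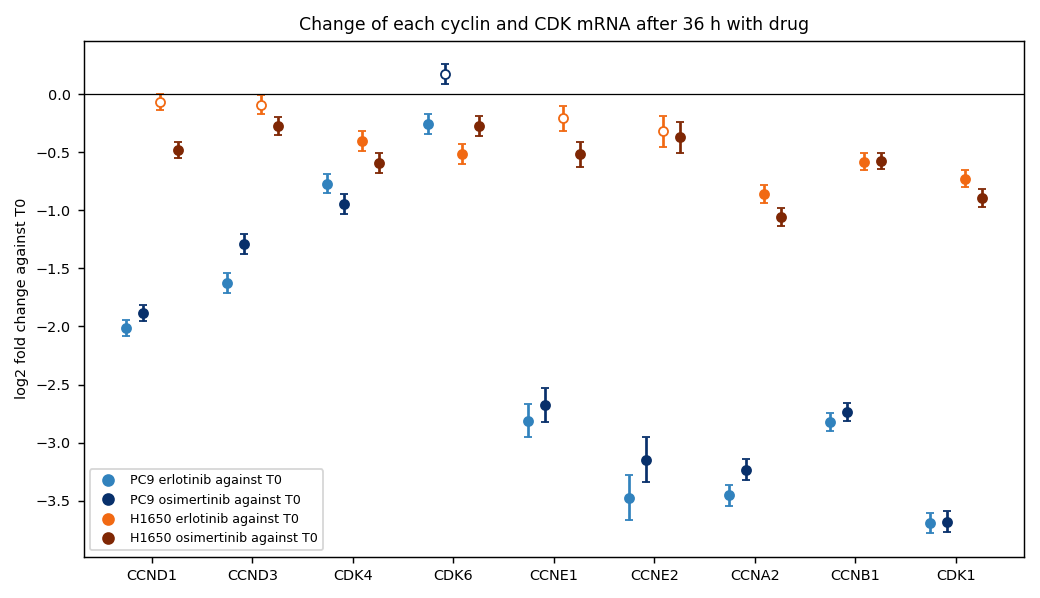
Log2 fold change against T0 (y axis) of the 9 tested members after 36 h with each drug in each line. Points are estimates of edgeR's quasi-likelihood model, bars are 1 SE, and hollow points were not called. CCNE1, CCNE2, CCNA2, CCNB1 and CDK1 lie between -2.67 and -3.69 in PC9 and between -0.21 and -1.06 in H1650, while CDK6 lies close to 0 in PC9.

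CCND1 encodes cyclin D1, the D-type cyclin most directly raised by growth factor signaling. In PC9 it stood at 716 and 749 normalized CPM in the T0 libraries, at 180 and 182 with erlotinib and at 201 and 196 with osimertinib. In H1650 it stood at 210 and 216 at T0, at 199 and 207 with erlotinib and at 151 and 154 with osimertinib. PC9 at T0 was thus set apart from the other 5 groups, and the treated PC9 libraries fell to the range of the H1650 libraries.

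The PC9 change of CCND1 was -2.02 ± 0.0684 with erlotinib (adjusted p = 6.75e-20) and -1.88 ± 0.0683 with osimertinib (adjusted p = 2.79e-19). In H1650 the change with erlotinib was -0.070 ± 0.0670 (adjusted p = 0.453), with a 95% interval of -0.21 to 0.068, and its direction turned when library totals were used in place of TMM factors (0.056). With osimertinib H1650 CCND1 fell by 0.48 on the log2 scale (SE 0.0674, adjusted p = 1.93e-06). The largest shift that another scaling gave to the median change of all genes was 0.13, for this same contrast of H1650 with erlotinib and library totals.

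CCND3 encodes cyclin D3, which can stand in for cyclin D1 in many cell types. Its PC9 levels were 107 and 105 normalized CPM at T0, 35.6 and 33.0 with erlotinib and 42.0 and 44.6 with osimertinib. Its H1650 levels were 214 and 189 at T0, 190 and 188 with erlotinib and 178 and 154 with osimertinib. Every H1650 library lay above every PC9 library, the reverse of CCND1 at T0. Its log2 fold change in PC9 was -1.63 with erlotinib (adjusted p = 1.86e-15) and -1.29 with osimertinib (adjusted p = 2.29e-13). In H1650 it changed by -0.092 with erlotinib (adjusted p = 0.398) and fell by 0.27 with osimertinib (adjusted p = 0.00747).

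That last call depended on single libraries. Without H1650 T0 replicate 1 the change was -0.18 (adjusted p = 0.178), and without H1650 osimertinib replicate 2 it was -0.17 (adjusted p = 0.205). With library totals in place of TMM factors the change with erlotinib in H1650 was 0.035.

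CCND2, the remaining D-type cyclin, had 0 reads in 11 libraries and 2 reads in H1650 osimertinib replicate 1. It was at or under the floor of 3 reads in every library and was not tested. The processed pseudogenes CCND2P1, CCND3P2 and CDK4P1 had 0 reads in every library and CCND3P1 at most 5.

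Scaled by the deposited gene length, CCND1 made up most of the summed D-type level in PC9, and CCND3 held a nearly equal share in H1650. That length lies close to the exon bases annotated over all transcripts of a gene (5761 against 5802 for CCND3). Length-scaled shares and ratios between genes, here and below, therefore depend on which transcripts the cells use, which was not tested. The CCND3 share of CCND1 plus CCND3, in normalized CPM per kilobase, was 10.96% and 10.38% in the PC9 T0 libraries and 45.7% and 41.9% in those of H1650. In PC9 it was 14.03% and 13.05% with erlotinib and 14.7% and 15.8% with osimertinib, above both T0 libraries. In H1650 it was 44.0% and 42.8% with erlotinib, within the T0 range, and 49.3% and 45.2% with osimertinib. The summed D-type level fell in PC9 from 169 and 175 normalized CPM per kilobase at T0 to 44.1 and 43.9 with erlotinib, and it stood at 81.3 and 78.1 in H1650 at T0.

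CDK4, the kinase partner of the D-type cyclins, was at 120 and 132 normalized CPM in PC9 at T0, 71.7 and 75.7 with erlotinib and 60.2 and 70.8 with osimertinib. In H1650 it was at 77.4 and 77.5 at T0, 57.6 and 59.6 with erlotinib and 53.0 and 49.7 with osimertinib. All treated libraries lay below the T0 libraries of their line. With erlotinib the log2 fold change was -0.77 ± 0.0826 in PC9 (adjusted p = 3.88e-09) and -0.40 ± 0.0846 in H1650 (adjusted p = 0.000388). With osimertinib it was -0.94 ± 0.0838 in PC9 (adjusted p = 9.15e-11) and -0.59 ± 0.0850 in H1650 (adjusted p = 2.56e-06). TSPAN31, whose exons overlap those of CDK4, moved the other way and rose (1.03 and 1.24 in PC9, 0.42 and 0.35 in H1650, erlotinib first), and the part of the overlap in either result was not tested.

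CDK6, the kinase that shares the role of CDK4, moved least in PC9. Its PC9 levels were 139 and 163 normalized CPM at T0, 120 and 133 with erlotinib and 173 and 166 with osimertinib. Its H1650 levels were 173 and 158 at T0, 105 and 126 with erlotinib and 139 and 135 with osimertinib. The erlotinib libraries were the lowest in both lines. In H1650 the log2 fold change of CDK6 was -0.51 with erlotinib (adjusted p = 2.99e-05) and -0.27 with osimertinib (adjusted p = 0.0146).

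The smaller CDK6 changes turned on single libraries and on the scaling or filter. In PC9 with erlotinib the change was -0.26 ± 0.0874 (adjusted p = 0.0124), but it was -0.14 (adjusted p = 0.277) without T0 replicate 2, -0.19 (adjusted p = 0.129) without erlotinib replicate 1 and -0.17 (adjusted p = 0.0863) with library totals. With osimertinib it was 0.17 ± 0.0872 (adjusted p = 0.0939) with an interval of -0.0092 to 0.35, but it was called higher without T0 replicate 2 (0.29, adjusted p = 0.0224), with library totals (0.21, adjusted p = 0.0325) and with only genes of at least 10 counts in every library (0.22, adjusted p = 0.0302). In H1650 with osimertinib the call was lost without T0 replicate 1 (-0.21, adjusted p = 0.153), without osimertinib replicate 2 (-0.25, adjusted p = 0.0904) and with library totals (-0.20, adjusted p = 0.0639).

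Per unit of length, the CDK6 share of CDK4 plus CDK6 was 22.6% and 23.8% in PC9 at T0, 29.7% and 30.7% with erlotinib and 42.1% and 37.2% with osimertinib, so that the 3 PC9 groups did not overlap. In H1650 it was 36.1% and 34.0% at T0, 31.6% and 34.8% with erlotinib and 39.8% and 40.7% with osimertinib. The osimertinib libraries of both lines thus had the largest CDK6 shares of their line. Reads on the 43.2% of CDK4 exon bases shared with TSPAN31 may be missing from the CDK4 counts, and their part in these shares was not tested.

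**Figure D3:**
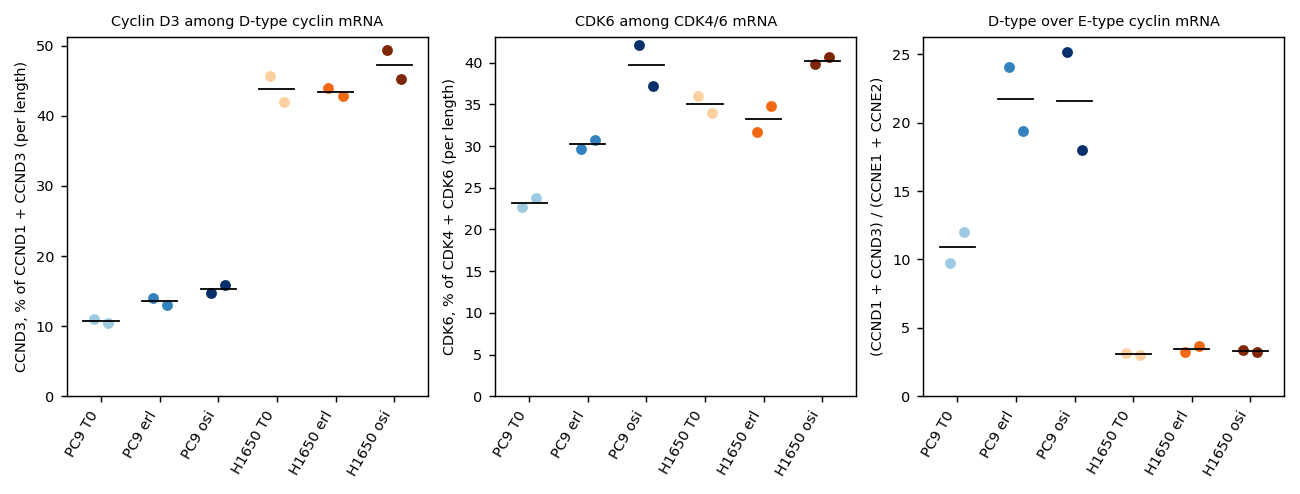
Balance between members in each library, from normalized CPM per kilobase (length-scaled levels): the CCND3 share of CCND1 plus CCND3 (left, percent), the CDK6 share of CDK4 plus CDK6 (middle, percent) and the ratio of CCND1 plus CCND3 to CCNE1 plus CCNE2 (right). Points are libraries and lines are group means. The effect of exon bases that CDK4 and CCNE2 share with other genes was not tested. The cyclin D3 share is 10.4 to 15.8% in PC9 and 41.9 to 49.3% in H1650, and the D-to-E ratio is 9.78 to 12.04 in PC9 at T0 and 17.98 to 25.17 after treatment.

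Cyclin E, which activates CDK2 at the start of S phase, is encoded by CCNE1 and CCNE2. CCNE1 was at 32.6 and 26.3 normalized CPM in PC9 at T0 and at 3.90, 4.45, 3.88 and 5.44 in the 4 treated PC9 libraries. In H1650 it was at 50.6 and 49.2 at T0, 45.8 and 40.8 with erlotinib and 35.5 and 34.3 with osimertinib. The treated PC9 libraries lay under 10 normalized CPM, while the treated H1650 libraries stayed above PC9 at T0. The log2 fold change of CCNE1 in PC9 was -2.81 ± 0.142 with erlotinib (adjusted p = 5.18e-16) and -2.67 ± 0.145 with osimertinib (adjusted p = 2.23e-15). In H1650 it changed by -0.21 with erlotinib (adjusted p = 0.142) and fell by 0.52 with osimertinib (adjusted p = 0.000389).

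CCNE2 was the least abundant tested member. Its PC9 levels were 17.6 and 17.1 normalized CPM at T0, 1.07 and 1.99 with erlotinib and 1.71 and 2.24 with osimertinib, from as few as 24 reads in a library. Its H1650 levels were 23.2 and 25.1 at T0, 20.79 and 17.97 with erlotinib and 17.90 and 19.42 with osimertinib. The PC9 change was -3.47 ± 0.190 with erlotinib (adjusted p = 3.24e-15) and -3.15 ± 0.191 with osimertinib (adjusted p = 2.61e-14), the largest SEs among the members.

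The H1650 values of CCNE2 lay close to the threshold. With erlotinib the change was -0.32 (adjusted p = 0.0641), which passed the threshold with RLE normalization (adjusted p = 0.0458), with 1 fit per cell line (adjusted p = 0.0291) and in the fits that left out PC9 erlotinib replicate 1 (adjusted p = 0.0359) or 2 (adjusted p = 0.0358). With osimertinib it was -0.37 (adjusted p = 0.0307), which did not pass with DESeq2 (adjusted p = 0.0673), with library totals (adjusted p = 0.0912), or without H1650 T0 replicate 2 (adjusted p = 0.170) or osimertinib replicate 1 (adjusted p = 0.179) or 2 (adjusted p = 0.0581). INTS8, whose exons overlap those of CCNE2, changed in PC9 by -0.16 with erlotinib (adjusted p = 0.0741) and -0.25 with osimertinib (adjusted p = 0.00731). In H1650 INTS8 changed by -0.27 with erlotinib (adjusted p = 0.00894), close to the CCNE2 value, and by -0.060 with osimertinib (adjusted p = 0.608), and the part of the overlap in the CCNE2 changes was not tested.

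The ratio of length-scaled D-type to E-type cyclin levels was 9.78 and 12.04 in PC9 at T0, 24.10 and 19.40 with erlotinib and 25.17 and 17.98 with osimertinib, so that E-type mRNA fell more than D-type mRNA. In H1650 the ratio stayed between 3.04 and 3.68 in all 6 libraries. CCNE1 made up 73.3 to 86.6% of the E-type level in every library of both lines. The part of the 37.1% of CCNE2 exon bases shared with other genes in these values was not tested.

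CCNA2 encodes cyclin A2, which acts in S phase and G2. It stood at 212 and 221 normalized CPM in PC9 at T0, 19.3 and 20.2 with erlotinib and 23.0 and 23.2 with osimertinib. In H1650 it stood at 161 and 155 at T0, 82.6 and 91.4 with erlotinib and 79.3 and 72.5 with osimertinib. The treated libraries of each line lay below the T0 libraries by a wide margin, and treated H1650 lay above treated PC9. With erlotinib the log2 fold change was -3.45 ± 0.0865 in PC9 (adjusted p = 1.47e-22) and -0.86 ± 0.0764 in H1650 (adjusted p = 6.85e-10). With osimertinib it was -3.23 ± 0.0863 in PC9 (adjusted p = 4.81e-22) and -1.06 ± 0.0768 in H1650 (adjusted p = 1.57e-11). The H1650 change with osimertinib was the largest of any member in that line.

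CCNB1 encodes cyclin B1, the mitotic partner of CDK1. It stood at 294 and 299 normalized CPM in PC9 at T0, 42.0 and 41.7 with erlotinib and 43.7 and 45.4 with osimertinib. In H1650 it stood at 261 and 262 at T0, 166 and 184 with erlotinib and 174 and 177 with osimertinib. Its T0 levels were the closest between the lines of the 3 late genes. The log2 fold change of CCNB1 in PC9 was -2.83 with erlotinib (adjusted p = 6.70e-22) and -2.74 with osimertinib (adjusted p = 1.20e-21). In H1650 it was -0.58 with either drug (adjusted p = 1.57e-07 and 1.94e-07).

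CDK1, the kinase of mitosis, had the largest PC9 change of the 9. It stood at 264 and 274 normalized CPM in PC9 at T0, 19.7 and 21.8 with erlotinib and 20.2 and 21.8 with osimertinib. In H1650 it stood at 207 and 212 at T0, 123 and 130 with erlotinib and 106 and 119 with osimertinib. The PC9 change was -3.69 ± 0.0876 with erlotinib (adjusted p = 5.23e-23) and -3.68 ± 0.0888 with osimertinib (adjusted p = 6.65e-23), and that in H1650 was -0.73 (adjusted p = 1.33e-08) and -0.89 (adjusted p = 3.33e-10). CDK1 stood at 5.93 and 5.23 times the length-scaled level of CDK6 in PC9 at T0 and at 0.363 to 0.513 times in treated PC9, whereas in H1650 it stayed above CDK6 in every library (2.39 to 4.19 times).

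**Figure D4:**
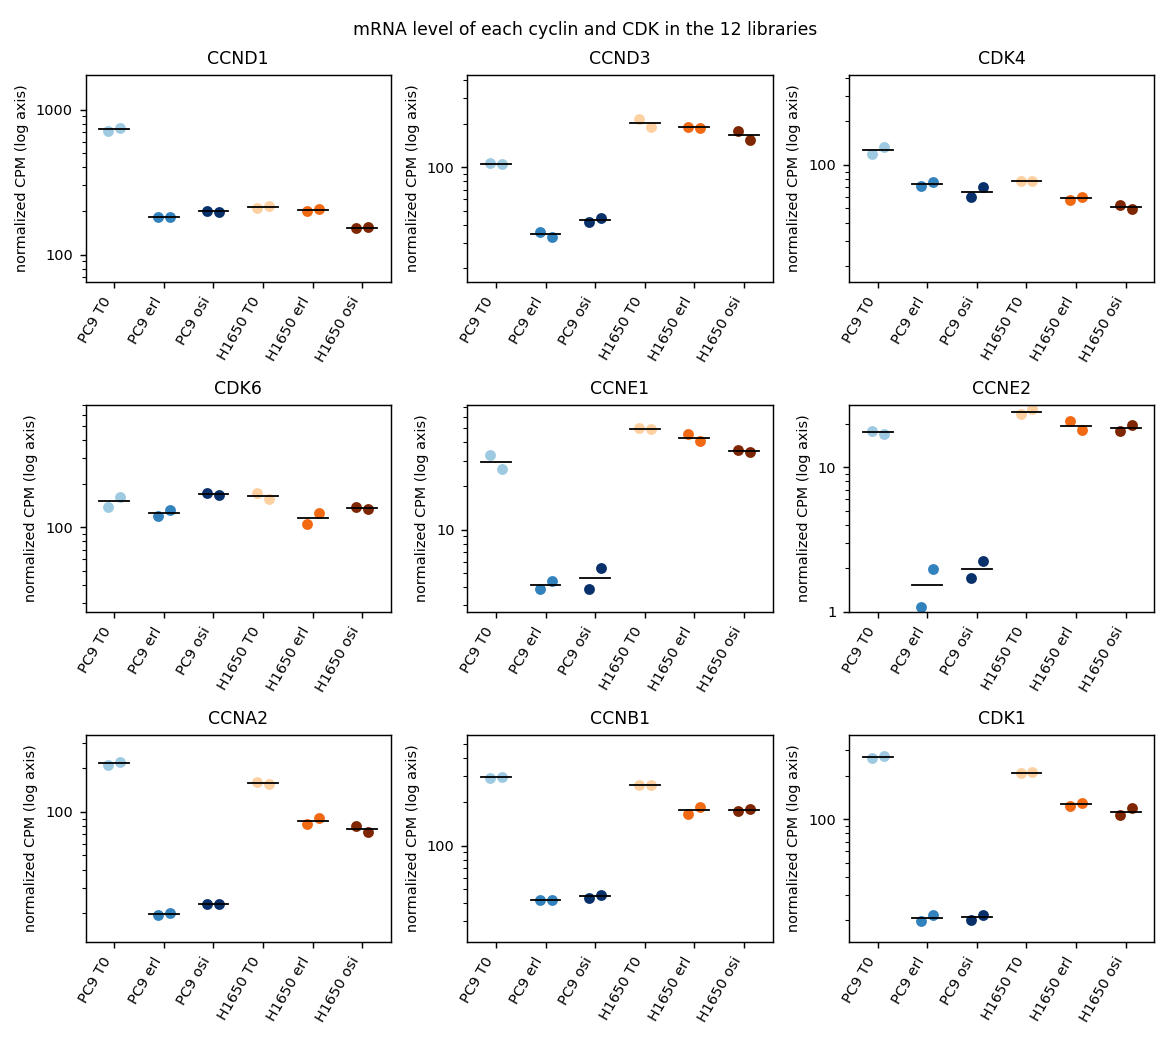
Normalized CPM (log axis, a range of its own in each panel) of the 9 tested members in the 12 libraries. Points are libraries, lines are means of 2, blue marks PC9 and orange H1650, with erl for erlotinib and osi for osimertinib. The 4 treated PC9 libraries lie under all others for CCND3, CCNE1, CCNE2, CCNA2, CCNB1 and CDK1, PC9 at T0 lies above all others for CCND1 and CDK4, and CDK6 stays between 105 and 173.

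Whether the lines differed was tested directly, by subtracting the PC9 change from that of H1650 within the model. With erlotinib 8 of 9 members had a higher (less negative) change in H1650, where 21.1% of all tested genes did, and 0 had a lower one (19.8%). With osimertinib 8 of 9 had a higher change (21.5%) and 1, CDK6, a lower one (20.5%). CCNE2, CDK1, CCNE1, CCNA2 and CCNB1 had the largest differences, 3.15, 2.97, 2.61, 2.59 and 2.24 with erlotinib and 2.77, 2.79, 2.16, 2.17 and 2.16 with osimertinib on the log2 scale. CCND1 and CCND3 followed with 1.95 and 1.53 for erlotinib and 1.40 and 1.01 for osimertinib. The median difference of the 9 members was 2.24 with erlotinib and 2.16 with osimertinib, against -0.032 and -0.026 over all tested genes.

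The kinases of the D-type cyclins differed least between the lines. The CDK4 difference was 0.37 with erlotinib (95% interval 0.13 to 0.61, adjusted p = 0.0127) and 0.35 with osimertinib (0.11 to 0.59, adjusted p = 0.0187). It was not called without PC9 T0 replicate 2 with either drug (0.30 and 0.28, adjusted p = 0.0909 and 0.117), nor, with osimertinib, without PC9 osimertinib replicate 1 (0.24, adjusted p = 0.160) or H1650 osimertinib replicate 1 (0.32, adjusted p = 0.0740). The CDK6 difference was -0.26 with erlotinib (95% interval -0.51 to -0.0035, adjusted p = 0.101) and -0.44 with osimertinib (-0.70 to -0.19, adjusted p = 0.00447). The former passed the threshold without PC9 T0 replicate 2 (adjusted p = 0.0309), PC9 erlotinib replicate 1 (adjusted p = 0.0494) or H1650 erlotinib replicate 2 (adjusted p = 0.0217), and the latter did not without PC9 T0 replicate 1 (-0.32, adjusted p = 0.0602).

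The drugs were also set against each other within each line, at doses that differed (10 and 0.1 µM). In PC9, 2 of 9 members were called, both higher with osimertinib, where 16.6% of all tested genes were called. They were CDK6 (0.43 ± 0.0873, adjusted p = 0.000763) and CCND3 (0.34 ± 0.0898, adjusted p = 0.00871), and CCND3 lost its call without PC9 erlotinib replicate 2 (0.28, adjusted p = 0.0966) or osimertinib replicate 2 (0.29, adjusted p = 0.0889), which left CDK6 alone. For the other 7 the difference ran from -0.17 for CDK4 to 0.33 for CCNE2. Their 95% intervals, not adjusted for the number of genes, were narrowest for CCND1 (-0.0045 to 0.27), CCNB1 (-0.072 to 0.25) and CDK4 (-0.35 to 0.0010). The widest was that of CCNE2 (-0.22 to 0.87), so differences smaller than these bounds were not resolved. Only the interval of CCNA2 (0.033 to 0.41, estimate 0.22, adjusted p = 0.105 in the quasi-likelihood test) excluded 0, so its missing call is not evidence of equal levels.

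In H1650 1 of 9 members was called between the drugs, where 8.75% of all tested genes were. That share stands for 1672 genes, and 1853 genes were called with library totals, 1703 with 1 fit per cell line and 1761 without a low-count filter. CCND1 was lower with osimertinib (-0.41 ± 0.0676, adjusted p = 0.000126). CCNE1 (-0.31, adjusted p = 0.0806) and CDK6 (0.24, adjusted p = 0.0910) came nearest to the threshold among the others. Their 95% intervals, not adjusted for the number of genes, were -0.54 to -0.085 and 0.061 to 0.42. Those of CCND3 (-0.35 to -0.019), CCNA2 (-0.36 to -0.038), CDK1 (-0.32 to -0.0094) and CDK4 (-0.37 to -0.015) also excluded 0. Those of CCNE2 (-0.33 to 0.23) and CCNB1 (-0.14 to 0.15) did not. A missing call is thus not evidence of equal levels. The count rose to 4 with library totals (CCND1, CCND3, CCNE1 and CCNA2, all lower), to 2 with 1 fit per cell line (CCND1 and CCNE1), and to 2 without a low-count filter or without H1650 erlotinib replicate 2 (CCND1 and CDK6, the latter 0.38 without that library).

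At T0 the lines differed in 8 of 9 members, where 69.6% of all tested genes differed. H1650 had more CCND3 (0.93 ± 0.0808, adjusted p = 5.44e-11), CCNE1 (0.76 ± 0.111, adjusted p = 7.75e-07) and CCNE2 (0.48 ± 0.136, adjusted p = 0.00286). It had less CCND1 (-1.78 ± 0.0678, adjusted p = 5.87e-19), CDK4 (-0.70 ± 0.0824, adjusted p = 1.89e-08), CCNA2 (-0.46 ± 0.0744, adjusted p = 4.27e-06) and CDK1 (-0.36 ± 0.0746, adjusted p = 0.000118). CCNB1 was lower (-0.18, adjusted p = 0.0217), a call lost with library totals (adjusted p = 0.0770) and without PC9 T0 replicate 1 (adjusted p = 0.0630) or 2 (adjusted p = 0.105) or H1650 T0 replicate 1 (adjusted p = 0.0606) or 2 (adjusted p = 0.0804). CDK6 did not pass (0.13, adjusted p = 0.183), although without PC9 T0 replicate 2 the value was 0.25 (adjusted p = 0.0403). The median size of the line difference at T0 was 0.48 over the members and 0.80 over all tested genes.

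Under drug the lines were further apart. With erlotinib 7 of 9 members were higher and 1 lower in H1650 than in PC9 (36.7% of all tested genes were higher and 35.4% lower), with CCNE2 at 3.63, CCNE1 at 3.37, CDK1 at 2.61, CCND3 at 2.46, CCNA2 at 2.14 and CCNB1 at 2.06 on the log2 scale. CCND1 was called with only 0.17 (adjusted p = 0.0280), which was lost with RLE normalization (adjusted p = 0.0656), without a low-count filter (adjusted p = 0.0839) and without PC9 erlotinib replicate 1 (adjusted p = 0.103) or 2 (adjusted p = 0.0849) or H1650 erlotinib replicate 2 (adjusted p = 0.175). CDK6 passed, as lower in H1650, without H1650 erlotinib replicate 2 (-0.27, adjusted p = 0.0226). With osimertinib 6 were higher and 3 lower (36.6% and 35.0% of all tested genes), the lower ones being CCND1 (-0.38), CDK4 (-0.35) and CDK6 (-0.31). The median size of the line difference was 2.14 with erlotinib and 1.94 with osimertinib over the members, against 0.84 and 0.85 over all tested genes.

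Across the 6 groups, the highest mean level exceeded the lowest by 15.8 times for CCNE2, 12.95 times for CDK1, 11.96 times for CCNE1, 10.97 times for CCNA2 and 7.09 times for CCNB1, but by 1.47 times for CDK6. The 3 H1650 groups held the top 3 places for CCND3, CCNE1 and CCNE2, in the order T0, erlotinib, osimertinib. For CCNA2, CCNB1 and CDK1 the order began with PC9 at T0 and H1650 at T0 and ended with the treated PC9 groups. Libraries of neighbouring groups in these orders overlapped for CCND1 (H1650 with erlotinib and PC9 with osimertinib), CCND3 (H1650 T0 and erlotinib), CCNB1 (H1650 with either drug), CCNE1 and CDK1 (PC9 with either drug) and CCNE2 (the drugs in each line), and not for CCNA2 or CDK4. CDK6 had 3 overlapping neighbour pairs of 5. These orders are descriptions, because the share of all tested genes without overlap was not counted. With 2 libraries a group, groups can lie apart without a call, as CCND1 did in H1650 with erlotinib against T0.

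Over the 12 libraries, which share lines and treatments, CCNB1 and CDK1 had a Pearson correlation of log2 levels of 0.998, CCNA2 and CDK1 of 0.991, CCNE1 and CCNE2 of 0.991, CCND3 and CCNE1 of 0.981 and CCND1 and CDK4 of 0.912. CDK6 correlated with no member above 0.32. Among 10285 genes with a mean of at least 10 normalized CPM, those most like CCNB1 were BIRC5 (0.999), BUB1 (0.998) and BUB1B (0.998), and those most like CDK1 were BUB1 (0.998), XRCC2 (0.997) and STIL (0.997). CCNA2 was most like TRIP13, NRP1 and KPNA2 (each 0.997), CCNE1 like AC092718.4 (0.998), ATAD2 (0.996) and ZNF714 (0.994), and CCNE2 like MCM6 (0.994), PARPBP (0.993) and ATAD2 (0.993). BIRC5, BUB1 and BUB1B act in mitosis and MCM6 in DNA replication. CCND1 was most like SF1 (0.988), CMPK1 (0.986) and LIPG (0.986), CCND3 like RMDN3 (0.995), KIFC3 (0.995) and MST1R (0.994), and CDK4 like IPO5 (0.988), ZNRD2 (0.986) and SH3KBP1 (0.985). Genes among the nearest to CDK6, PPME1 (0.925) and ANXA2 (0.920), were further from it than those of any other member.

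Other genes of the same pathway were examined as lists, all of whose genes were tested. Of all tested genes, 32.7% were higher in PC9 with either drug, and 29.1% (erlotinib) or 28.7% (osimertinib) were lower. In H1650 18.0% and 17.8% were higher and 18.5% and 17.9% lower, erlotinib first. In lists this short, counts near these shares do not set a list apart from all genes. The list of 12 other cell-cycle cyclins and CDKs was not limited to genes that drive division. In PC9, 5 of the 12 were higher and 3 lower with erlotinib, and 7 and 3 with osimertinib. In H1650 the numbers were 2 and 3 with erlotinib and 1 and 3 with osimertinib. With each drug in PC9 the lower ones were CDK2, CCNF and CCNB2, and the higher ones included CCNG2, CCNI, CDK3, CDK5 and CDK14. The counts and medians of this list therefore do not stand for the genes that drive division. The median change of this list was 0.45 with erlotinib and 0.46 with osimertinib in PC9, and 0.0011 and -0.034 in H1650. Pairs of values below keep this order of the drugs. Of the 7 higher ones, CCNA1 (3 and 5 reads with osimertinib, 0 and 0 at T0) and CCNB3 (6 and 11 reads, 1 and 2 at T0) rested on few reads, and without them the list had 5 higher and 3 lower of 10 with each drug in PC9, and medians of 0.28 and 0.25. CDK2, the kinase of cyclins E and A, was lower in all 4 contrasts (log2 fold changes of -1.86 and -1.70 in PC9, -0.40 and -0.54 in H1650). CCNF, which acts in ubiquitin ligation in G2, fell (-3.04 and -2.86 in PC9, -0.92 and -0.88 in H1650), and CCNB2, the other mitotic B-type cyclin, fell (-1.95 and -2.09 in PC9, -0.34 and -0.36 in H1650). CCNG2, a cyclin known to be high in cells that have stopped dividing, rose instead (2.31 and 2.58 in PC9, 0.85 and 1.18 in H1650). CDK14 rose by 0.69 and 1.03 in PC9 and was not called in H1650 (-0.056 and 0.054).

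Some cyclins and CDKs act in transcription and splicing rather than in the cell cycle. Of 12 transcriptional cyclins and CDKs, 4 were higher and 5 lower in PC9 with each drug, and 3 and 4 (erlotinib) or 4 and 2 (osimertinib) in H1650, with medians of 0.042 and 0.036 (PC9) and of 0.076 and 0.11 (H1650). CCNL2, a splicing-linked cyclin, rose (1.51 and 1.29 in PC9, 0.42 and 0.42 in H1650), and CDK19 of the Mediator complex rose (0.96 and 0.95 in PC9, 0.30 and 0.39 in H1650). CDK12, which phosphorylates RNA polymerase II, fell (-0.38 and -0.43 in PC9, -0.51 and -0.54 in H1650), and CDK8 fell (-0.47 and -0.65 in PC9, -0.41 and -0.31 in H1650).

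Of 10 genes that activate or restrain CDKs by phosphorylation or as subunits, 9 were lower with erlotinib and 8 with osimertinib in PC9, 5 and 6 in H1650, and 0 higher in any of the 4, with medians of -1.80 and -1.86 (PC9) and of -0.29 and -0.31 (H1650). CDC25A, a phosphatase that activates CDKs, fell (-4.39 and -4.20 in PC9, -0.53 and -0.77 in H1650). PKMYT1, a kinase that inhibits CDK1, fell (-4.03 and -3.86 in PC9, -0.39 and -0.82 in H1650). WEE1, which has the same action, fell with erlotinib in PC9 (-0.62) and with osimertinib in H1650 (-0.31), and was not called with osimertinib in PC9 (-0.049) or erlotinib in H1650 (0.11). CDK7, the kinase of the CDK-activating complex, was called lower with erlotinib in H1650 (-0.35) and not in the other 3 contrasts.

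The 7 CDK inhibitors divided. In PC9 4 were higher and 3 lower with each drug, while in H1650 1 was higher and 1 (erlotinib) or 2 (osimertinib) lower, with medians of 0.28 and 0.53 in PC9. CDKN2A and CDKN2B had 0 reads in all H1650 libraries and passed the filter through PC9 alone, so that the H1650 counts are of 5 genes, with medians of -0.31 and -0.16. CDKN2B, which encodes the CDK4 and CDK6 inhibitor p15, had 8.72 and 8.88 normalized CPM in PC9 at T0, 130 and 126 with erlotinib and 197 and 209 with osimertinib, rises of 3.86 and 4.53 on the log2 scale. CDKN1B, which encodes p27, rose by 0.69 and 0.98 in PC9 and was not called in H1650 (0.20 and 0.083). CDKN1A, which encodes p21, fell in PC9 (-1.33 and -0.48) and with erlotinib in H1650 (-0.52), and was not called with osimertinib there (-0.16). Its level at T0 was 31.3 and 33.7 normalized CPM in PC9 against 346 and 325 in H1650. CDKN2C, which encodes p18 and is itself an E2F target, fell in PC9 (-2.27 and -2.21) and with osimertinib in H1650 (-0.49).

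Among 13 genes of RB, its relatives and the E2F and DP factors, 11 were lower and 2 higher in PC9 with each drug, and 4 (erlotinib) or 6 (osimertinib) were lower and 2 higher in H1650, with medians of -1.18 and -1.02 (PC9) and of -0.12 and -0.30 (H1650). E2F1 fell in PC9 (-4.47 and -3.77), was not called with erlotinib in H1650 (-0.00096) and fell by 0.44 with osimertinib, the same calls as for CCNE1. E2F2 (-4.56 and -4.33) and E2F7 (-4.47 and -4.19) fell in PC9. In H1650 E2F7 fell (-0.42 and -0.56) and E2F2 was not called (-0.12 and -0.30). RB1 itself fell (-1.03 and -1.02 in PC9, -0.25 and -0.38 in H1650). RBL2, which encodes the DREAM component p130, rose (1.08 and 1.20 in PC9, 0.31 and 0.26 in H1650), and TFDP2 rose (1.38 and 1.56 in PC9, 0.47 and 0.52 in H1650).

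Of 8 genes for factors of mitotic transcription, 6 were lower and 1 higher in PC9 with each drug, 4 lower and 1 higher in H1650 with erlotinib and 5 lower and 0 higher with osimertinib, with medians of -1.19 and -1.16 (PC9) and of -0.25 and -0.50 (H1650). MYBL2 fell in PC9 (-4.01 and -3.45) and in H1650 (-0.74 with either drug), and so did FOXM1 (-2.42 and -2.74 in PC9, -0.54 and -0.75 in H1650). These factors are known to bind with MuvB at CHR promoters, and their binding to the printed windows was not measured here. The NF-Y subunits that bind the CCAAT box moved less: NFYA fell in PC9 (-0.25 and -0.26) and was not called in H1650 (-0.090 and -0.021), and NFYB rose in PC9 (0.43 and 0.74) and with erlotinib in H1650 (0.34), with 0.11 and no call for osimertinib.

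Of 17 genes for cyclin degradation, 10 were lower and 3 higher with erlotinib and 11 and 4 with osimertinib in PC9, 8 and 1 with erlotinib and 5 and 2 with osimertinib in H1650, with medians of -0.27 and -0.41 (PC9) and of -0.20 and -0.14 (H1650). UBE2C and CDC20, which serve the anaphase-promoting complex, fell in all 4 contrasts (UBE2C -3.11 and -3.10 in PC9, -0.64 and -0.77 in H1650). The PC9 changes of CDC20 were -2.71 and -3.03, and its H1650 changes were -0.79 and -0.81. AMBRA1, the adaptor for degradation of D-type cyclins, rose (0.61 and 0.54 in PC9, 0.59 and 0.55 in H1650), with a line difference of -0.024 (95% interval -0.33 to 0.28) for erlotinib and 0.014 (-0.29 to 0.32) for osimertinib. ANAPC2, a core subunit of the complex, rose by 0.40 and 0.33 in PC9 and was not called in H1650 (0.082 and 0.18).

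A readout of proliferation, 14 genes of DNA replication and division, was lower for all 14 genes in PC9 with each drug and for 11 (erlotinib) or 13 (osimertinib) in H1650, with 0 higher. MKI67, the standard proliferation marker, fell (-3.33 and -3.15 in PC9, -0.97 and -1.02 in H1650). RRM2 fell (-4.91 and -4.35 in PC9, -0.90 and -1.18 in H1650), and so did TYMS (-4.62 and -4.19 in PC9, -0.43 and -0.51 in H1650). PCNA fell in PC9 (-3.09 and -2.86) and was not called in H1650 (-0.027 and -0.17), and MCM7 fell in PC9 (-1.59 and -1.67), was not called with erlotinib in H1650 (-0.052) and fell by 0.27 with osimertinib. The median change of the 14 genes was -3.13 and -3.06 (PC9) and -0.67 and -0.72 (H1650), between the highest and lowest changes of CCNA2, CCNB1 and CDK1 in each contrast. These lists were chosen with earlier results of these data known, and their counts are descriptions.

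**Figure D5:**
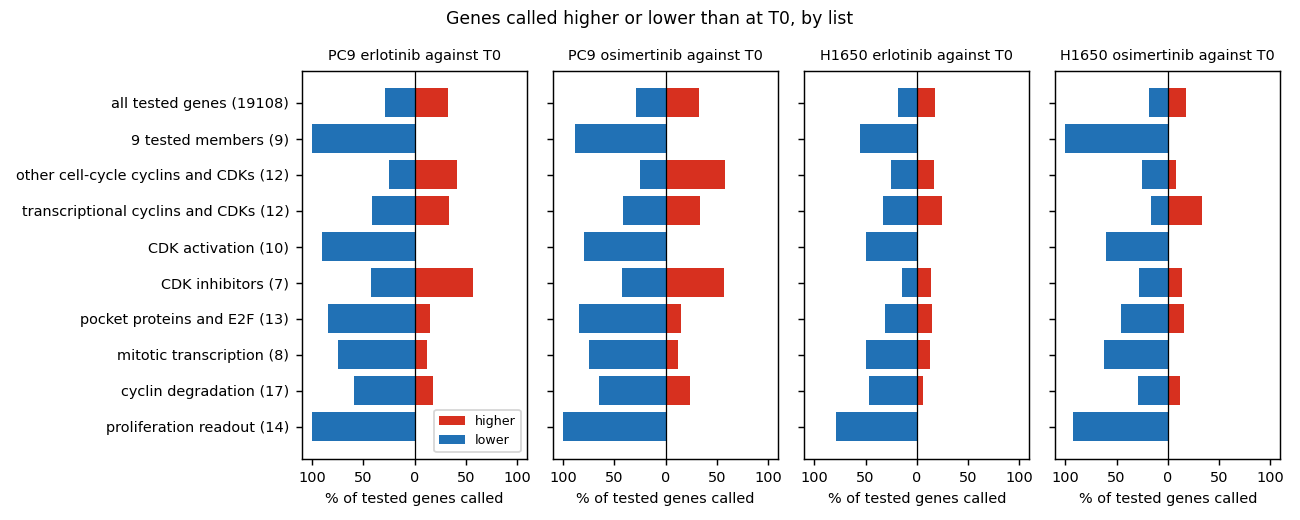
Percent of tested genes called higher (red, to the right) or lower (blue, to the left) than at T0, for all tested genes, the 9 tested members and 8 lists, in the 4 drug contrasts. Numbers in parentheses are the genes tested. The CDK activation and proliferation readout lists have no gene called higher in any contrast, and the other cyclin lists have genes called in both directions.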

How the data were processed

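PolyA RNA of 12 libraries was sequenced. Per the paper's methods the authors processed reads with the DolphinNext pipeline, and they deposited whole-number counts of reads per gene and library from featureCounts, without normalization, beside each gene's length. The genome build named in the submitters' processing notes is GRCh38, and DESeq2 is listed there. The aligner, annotation and strand setting are not given in the sources used here.

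The tool used for tests was edgeR 4.0.16 (R 4.3.3), with TMM factors, on the 19108 genes that filterByExpr retained given the groups. A quasi-likelihood model of the 6 groups was fitted to all 12 libraries (6 residual and 20.7 prior degrees of freedom, biological coefficient of variation 0.0656), with Benjamini-Hochberg adjustment over all tested genes and calls at an adjusted p under 0.05. Errors after ± are the SD or SE as named, with n = 2 libraries a group, and intervals cover 95%. Length-scaled levels divide normalized CPM by the deposited length, whichever transcripts of the gene are expressed. Alike genes were ranked by Pearson correlation of log2 normalized CPM (prior count 2) over 12 libraries. In none of the 6 groups did the 2 libraries agree within sampling noise (chi-square per degree of freedom 4.02 to 7.13). Named genes are all members, the 2 highest and 2 lowest mean changes over the 4 drug contrasts in each list with a mean of at least 10 normalized CPM, and CDK2, CCNB2, CDKN1A, CDKN1B, E2F1, RB1, CDC25A, WEE1 and MKI67.

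The members, lists and tests were chosen with earlier results of these data known. The model was also run on simulated counts in which 200 genes changed by 1 on the log2 scale in PC9 with erlotinib. Far more genes were called in the real contrasts, so that run does not test the scaling or calls in these data. Alternatives were DESeq2 1.42.0, RLE normalization, library totals, 2 other low-count filters, an adjusted p under 0.01, fits of each cell line alone, a block for the replicate number and leaving out each library. All replicates share their numbers across groups, but over 15 pairs of groups the deviations of same-numbered libraries correlated between -0.067 and 0.095 and never above 0.1, so numbers were not taken to pair libraries. The 5 fibroblast markers summed to 10.3 to 44.9 normalized CPM, nearly all of it COL1A1, and the 4 endothelial markers to 0.193 to 5.83.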

Additional observations from a re-analysis of the deposited data

Results flagged for a closer look

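The lines differed in their change under the same drug, tested by subtracting the PC9 change from that of H1650 within edgeR's quasi-likelihood model, for 8 of 9 members with erlotinib and 9 of 9 with osimertinib. These are log2 differences, and no explanation was tested for any of them. Of all tested genes, 21.1% had a higher and 19.8% a lower change in H1650 with erlotinib, and 21.5% and 20.5% with osimertinib. For erlotinib the difference was 1.95 for CCND1, 1.53 for CCND3, 2.61 for CCNE1, 3.15 for CCNE2, 2.59 for CCNA2, 2.24 for CCNB1, 2.97 for CDK1 and 0.37 for CDK4. For osimertinib it was 1.40 for CCND1, 1.01 for CCND3, 2.16 for CCNE1, 2.77 for CCNE2, 2.17 for CCNA2, 2.16 for CCNB1, 2.79 for CDK1 and 0.35 for CDK4. CDK6 was the exception in sign, at -0.44 with osimertinib, from a PC9 change of 0.17 (not called) and an H1650 change of -0.27. With 2 libraries a group, no single library could be tested as standing apart from its group.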

How the results depend on the processing

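Limits: 2 libraries a group, T0 without a vehicle at 36 h, and counts over whole genes bound what these values can show, and CCNE2 in treated PC9 rests on 24 to 51 reads a library. Of the member changes recomputed under 8 other settings, 711 kept direction and call, 14 lost and 16 gained a call and 6 changed sign, and over 12 fits that each left out 1 library the numbers were 1148, 23, 9 and 8. Lost and gained calls are given beside the results, except those lost at an adjusted p under 0.01, and no cause of them was tested. The number of members called between the drugs in H1650, 1 in the main fit, was 4 with library totals, 2 without a low-count filter and 2 with 1 fit per cell line. Over all genes tested in each fit, 1672 were called in the main fit, 1853 with library totals, 1761 without a filter and 1703 with 1 fit per cell line. Library totals also moved the median change of all genes in this contrast by -0.052. All changes of sign were in values that were not called. With library totals they were CCND1 (0.056) and CCND3 (0.035) with erlotinib in H1650, CDK1 (-0.036) between the drugs in PC9 and CCNB1 (-0.048) between the drugs in H1650. CDK1 between the drugs in PC9 was also -0.011 without a filter and -0.0071 with 1 fit per cell line. With 1 library left out, those between the drugs that changed sign ranged from -0.11 to 0.38 (CCNE1), -0.027 to 0.86 (CCNE2) and -0.058 to 0.090 (CDK1) in PC9, and from -0.067 to 0.089 (CCNB1) and -0.15 to 0.053 (CCNE2) in H1650.

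With 1 library left out, the members called ranged from 8 to 9 (PC9 erlotinib), 8 to 9 (PC9 osimertinib), 5 to 6 (H1650 erlotinib), 6 to 9 (H1650 osimertinib), 1 to 2 (between the drugs, in each line), 8 to 9 (each line difference), 7 to 8 (H1650 against PC9 at T0 and under erlotinib) and stood at 9 under osimertinib.

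With the replicate number as a block, 5 members were called between the drugs in H1650 (CDK6 higher, CCND1, CCND3, CCNE1 and CCNA2 lower). Calls over all 19108 tested genes also rose in this contrast, from 1672 to 2670, so the rise was not particular to the members. CCNE2 with erlotinib in H1650 (-0.32, adjusted p = 0.0364), CDK6 with osimertinib in PC9 (0.17, adjusted p = 0.0313) and the CDK6 line difference with erlotinib (-0.26, adjusted p = 0.0324) gained a call. No other member call changed with the block.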
